A study of Mus musculus with 2 samples.

Results

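The 10 genes described here encode enzymes and a transporter of antioxidant and glutathione metabolism: Gpx3, Gpx1, Gpx4, Mgst1, Gsta3, Slc7a11, Prdx1, Sod1, Sod2 and Cat. They were chosen by symbol from the 27998 genes of the deposited matrices, and all 10 were found. Single cells of the retinal pigment epithelium (RPE), the pigmented layer behind the photoreceptors, came from 2 male C57BL/6J mice without treatment. The mice, R1 and R2, were 36 days old by the protocol and 4 to 5 weeks old by the labels. The RPE sheets of both eyes of a mouse were released with trypsin, pooled, dissociated, and sorted for cells positive for calcein AM and negative for DAPI, so a mouse is a single library and the mice are the replicates. Molecules were counted with unique molecular identifiers (UMIs) at the 3′ end of transcripts, so that each captured molecule counts once whatever its length. Within each mouse, cells with at least 5% of their UMIs from Ttr (high-Ttr cells) were set against cells with less than 3% (low-Ttr cells). Ttr encodes transthyretin, a carrier of thyroid hormone and retinol-binding protein that RPE cells make in large amounts.

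RPE cells take up oxygen from the choroid, digest the oxidised membranes of photoreceptor outer segments and stand in the path of light, and are known for a high oxidative load. Superoxide dismutases turn superoxide into hydrogen peroxide. Catalase, peroxiredoxins and glutathione peroxidases remove peroxides, the last of these with glutathione, a tripeptide whose supply depends on imported cystine. Glutathione transferases couple glutathione to electrophiles such as products of lipid oxidation. Many of the genes are known targets of NRF2, a transcription factor that binds the antioxidant response element.

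The deposited libraries held 2844 and 2994 cell barcodes with 26034378 and 29732969 UMIs in R1 and R2, and 12 barcode sequences occurred in both. After the filters, 2671 and 2847 cells were kept. In R1, 2612 cells were high-Ttr and 59 (2.21%, exact 95% binomial interval 1.69% to 2.84%) were low-Ttr. In R2, 2828 cells were high-Ttr and 19 (0.667%, interval 0.402% to 1.04%) were low-Ttr. No cell in either mouse lay between 3% and 5%. Close to the limits, 12 and 4 high-Ttr cells had 5% to 6% Ttr, and 3 low-Ttr cells of R1 and 0 of R2 had 2% to 3%. Low-Ttr cells were shallower, with a median of 3200 and 3836 UMIs against 8416.5 and 7687 in high-Ttr cells. Their median mitochondrial share was also higher, at 2.57% and 3.35% against 1.30% and 1.26%. The part of depth and of mitochondrial share in the results was not tested. Where high-Ttr cells of like depth are named, they lay between percentiles 5 and 95 of low-Ttr depth in the same mouse. That kept 620 high-Ttr cells in R1 and 1870 in R2. In R2, 3 low-Ttr cells above 9000 UMIs widened this range, so depth was matched only loosely there.

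The labels call all of these cells RPE, and the high-Ttr cells carried the markers of that type. All high-Ttr cells had UMIs of at least 3 of 8 RPE markers (Rpe65, Rlbp1, Lrat, Rgr, Best1, Rdh5, Stra6 and Rrh), which summed to 400.2 and 448.3 UMIs per 10000 in R1 and R2. Low-Ttr cells had 35.3 and 24.4 UMIs per 10000 of the same list, and Best1 was at 0 there, although Best1 gave just 7 and 11 UMIs in high-Ttr cells. A list of 8 genes for pigment cells with Pax6 and Dkk3 (these 2 with Mlana, Trpm1, Gpnmb, Aldoc, Id3 and Zic4) summed to 170.7 and 127.8 UMIs per 10000 in low-Ttr cells and to 7.40 and 4.78 in high-Ttr cells. The study's text names these genes, apart from Zic4, as upregulated in its smallest cluster of these same mice, where Ttr was low. High values of this list in low-Ttr cells thus follow in part from how it was made and are no separate evidence of a cell type. By at least 3 markers, 54 of 59 low-Ttr cells in R1 and 16 of 19 in R2 carried these pigment markers without markers of another type, 3 and 2 carried fibroblast markers, and 2 and 1 carried microglia or macrophage markers. The pigment rule alone was also met by 1218 high-Ttr cells in R1 and 777 in R2, so it is not particular to low-Ttr cells. At least 3 RPE markers were found in 49 and 13 low-Ttr cells, and markers of another type in 21 and 19 high-Ttr cells. All 8 rod photoreceptor markers were at 0 in low-Ttr cells. The low-Ttr cells are therefore named here by their rule and not as a cell type.

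**Figure D1:**
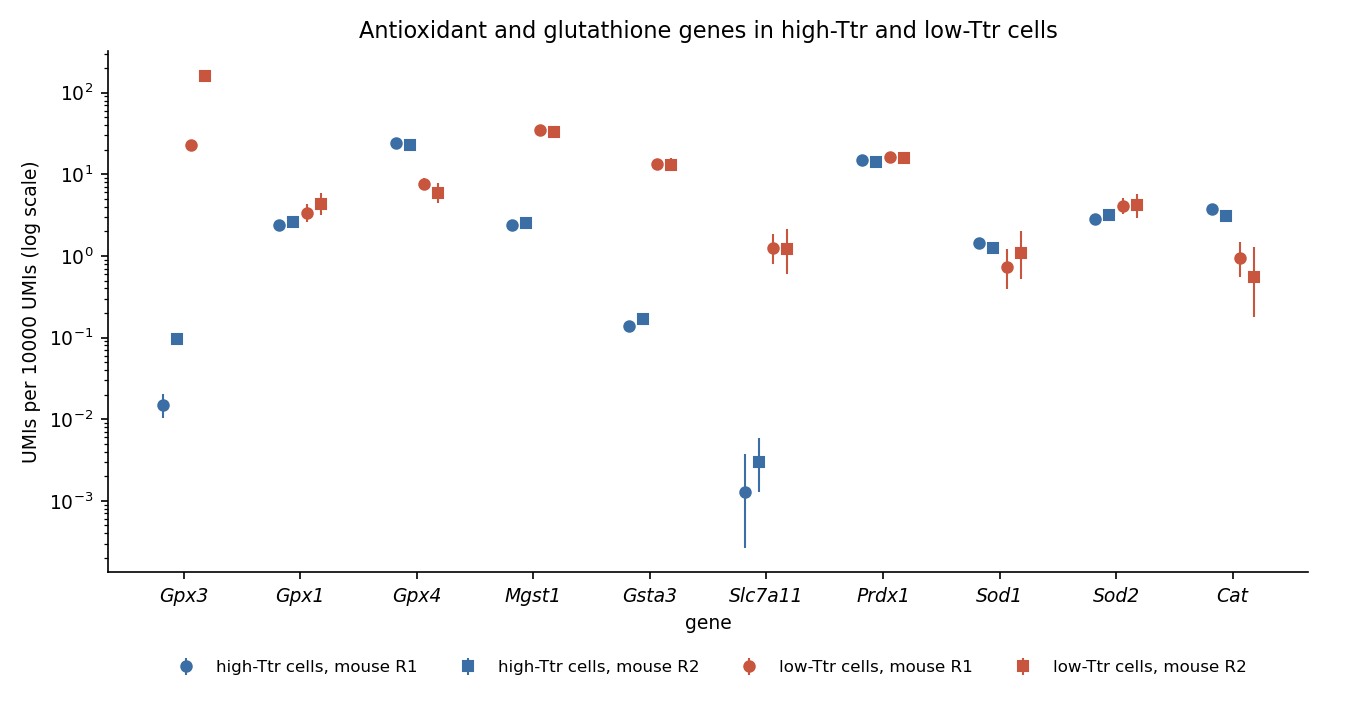
Level of each of the 10 genes, in UMIs per 10000 UMIs of a class on a log axis, in high-Ttr (blue) and low-Ttr (red) cells of mouse R1 (circles) and mouse R2 (squares), with exact 95% Poisson bars that cover counting error. Gpx3, Mgst1, Gsta3 and Slc7a11 lay higher in low-Ttr cells of both mice, Gpx4 and Cat lower, and Prdx1 stayed between 14.0 and 16.3 in all 4 sums.

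In high-Ttr cells the 10 genes ranged over 4 orders of magnitude on the scale of UMIs per 10000, and the order of the levels was nearly the same in both mice. Gpx4, the peroxidase that reduces lipid hydroperoxides in membranes, was highest at 24.0 in R1 and 22.7 in R2, rank 35 and 36 among all genes. Prdx1, a cytosolic peroxiredoxin, followed at 15.1 and 14.0. Catalase (Cat), which breaks down hydrogen peroxide in peroxisomes, was at 3.79 and 3.10, and Sod2, the manganese superoxide dismutase of mitochondria, at 2.84 and 3.14. Cat and Sod2 changed order between the mice, so their order is not settled at 2 replicates. Gpx1, the cytosolic glutathione peroxidase, was at 2.41 and 2.59, and Mgst1, a membrane-bound glutathione transferase, at 2.39 and 2.54. The values of Gpx1 and Mgst1 overlapped between the mice and were not separated. Sod1, the cytosolic copper and zinc dismutase, was at 1.44 and 1.26. The last 3 genes were scarce in high-Ttr cells, namely the alpha-class glutathione transferase Gsta3 at 0.140 and 0.169, the secreted peroxidase Gpx3 at 0.0148 and 0.0962, and Slc7a11, the cystine importer, at 0.00127 and 0.00298.

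Low-Ttr cells had another order. In the sums Gpx3 was among the most abundant transcripts, at 23.1 in R1 and 159 in R2, rank 36 and 4 among all genes, although 42 of 59 and 8 of 19 cells had no Gpx3 UMI. Mgst1 was at 34.6 and 32.7, rank 23 and 24. Prdx1 had 16.3 and 15.8, and Gsta3 had 13.5 and 13.2. Between R1 and R2, these 3 levels differed by less than their counting intervals. Gpx3 was 6.89 times as high in R2 (exact 95% interval 6.19 to 7.68, for counting error only). In R2, 4 of the 19 low-Ttr cells held 95.4% of the Gpx3 UMIs, so this ratio rests on few cells. Gpx4 was at 7.59 and 5.93, Sod2 at 4.11 and 4.17, Gpx1 at 3.38 and 4.39, and Slc7a11 at 1.25 and 1.21. Cat and Sod1 were lowest, Cat at 0.936 and 0.549 from 18 and 5 UMIs, and Sod1 at 0.728 and 1.10 from 14 and 10 UMIs. Sod1 and Slc7a11 did not differ beyond their counting intervals in either mouse.

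The classes were compared on 4 sums of UMIs, a high-Ttr and a low-Ttr sum from each mouse, by the quasi-likelihood test of edgeR. The model held the mouse as a block, and p-values were adjusted by Benjamini-Hochberg over every gene in the fit. With 4 sums, a gene's own spread is barely measured, so SE and p rest mostly on spread shared over genes. They do not measure how unevenly the UMIs of a gene lie over single cells. Of the 10 genes, 7 passed the threshold of 0.05, 4 of them higher and 3 lower in low-Ttr cells. Slc7a11, among the 4, met the filter on low counts only through the low-Ttr sums. Over all 11475 genes tested, 10.5% passed, 4.25% higher and 6.23% lower. The 10 genes were chosen with earlier results of these data known, so their share of calls beside this is no test of them as a set. Log2 fold changes below are relative to a scaling (TMM) under which the median gene stood at -0.34. With totals alone that median was 0.38, and the calls over all genes went from 488 higher and 715 lower (40.6% higher) to 1096 higher and 384 lower (74.1% higher). DESeq2's Wald test called 500 higher and 428 lower (53.9% higher). Since a sum gives relative levels, fewer cells with a transcript and fewer copies per cell cannot be told apart in it, and shares of cells with a UMI are given beside the levels.

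Gpx3 differed most between the classes. It had 444 UMIs in the 59 low-Ttr cells of R1 against 35 in 2612 high-Ttr cells, and 1449 in the 19 low-Ttr cells of R2 against 258 in 2828. The ratio of levels was 1560 in R1 (exact 95% interval 1105 to 2269) and 1652 in R2 (1446 to 1894), and Gpx3 rose by a log2 fold change of 9.89 (SE 0.56, edgeR adjusted p = 2.86e-65). After each cell was thinned to 2000 UMIs, 23.7% of low-Ttr cells in R1 (exact interval 13.6% to 36.6%) and 47.4% in R2 (24.4% to 71.1%) had a Gpx3 UMI, against 0.268% and 1.34% of high-Ttr cells. Without thinning these shares were 28.8% and 57.9% against 1.23% and 2.83%. For comparison, Rpe65, the isomerase of the visual cycle, was found after thinning in 37.3% and 15.8% of low-Ttr cells and in 99.7% and 99.9% of high-Ttr cells. The log2 fold change of Gpx3 was 8.85 without the 3 low-Ttr cells of R2 above 9000 UMIs, and 4.14 without the low-Ttr cells that held at least 5 Gpx3 UMIs. Those cells were left out by their Gpx3 counts, in the low-Ttr class only, with a limit chosen after the values were seen. The p of that setting is therefore no test of Gpx3 and is not given.

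Slc7a11 forms with Slc3a2 the exchanger that imports cystine for glutathione synthesis. It had 24 UMIs in low-Ttr cells of R1 against 3 in high-Ttr cells, and 11 against 8 in R2, of which 5 lay in a single high-Ttr cell. The ratios of levels were 984 (interval 299 to 5105) and 405 (148 to 1159), and edgeR put the log2 fold change at 8.41 (SE 1.01). Slc7a11 met the filter on low counts only through the low-Ttr sums, where it was high, so it could enter the fit only with a difference and its p is not given. Its UMIs lay in 7 of 59 low-Ttr cells of R1 and 5 of 19 of R2, and 11 of the 24 UMIs in R1 lay in a single cell. After thinning, the shares were 11.9% and 5.26% of low-Ttr cells against 0.0766% and 0 of 2828 high-Ttr cells, where a count of 0 allows up to 0.106%. The partner Slc3a2 was at 12.6 and 8.12 in low-Ttr against 3.43 and 3.20 in high-Ttr cells, with a log2 fold change of 0.89 that did not pass (edgeR adjusted p = 0.0790). It passed with totals alone (1.64, adjusted p = 3.80e-10), without low-Ttr cells of other markers (1.02, adjusted p = 0.0184) and against high-Ttr cells of like depth (1.11, adjusted p = 0.00403).

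Both glutathione transferases of the set rose. Gsta3 was higher by 96.2 times in R1 (81.5 to 113.6) and 77.8 times in R2 (63.1 to 95.3), and edgeR put its log2 fold change at 5.70 (SE 0.40, adjusted p = 1.57e-43). Mgst1 was higher by 14.5 times in R1 (13.3 to 15.7) and 12.9 times in R2 (11.4 to 14.5), with a log2 fold change of 3.03 (SE 0.37, adjusted p = 4.10e-14). Unlike the UMIs of Gpx3 and Slc7a11, those of these genes were spread over the low-Ttr cells: after thinning, Mgst1 was found in 93.2% and 84.2% of them, against 34.4% and 34.7% of high-Ttr cells, and Gsta3 in 76.3% and 73.7%, against 2.45% and 2.93%. Among low-Ttr cells with the pigment markers, 48 of 54 in R1 and 15 of 16 in R2 had UMIs of both genes. Neither gene's call was lost under any of the alternatives run.

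Gpx4 and Cat fell. The level of Gpx4 in low-Ttr cells was 0.316 of that in high-Ttr cells in R1 (0.266 to 0.371) and 0.261 in R2 (0.196 to 0.341), and its edgeR log2 fold change was -2.53 (SE 0.39, adjusted p = 4.25e-09). Cat stood at 0.247 (0.146 to 0.390) and 0.177 (0.0575 to 0.413) of its high-Ttr level, with a log2 fold change of -2.89 (SE 0.44, adjusted p = 2.22e-09). Gpx4 was still found in most low-Ttr cells, 72.9% and 84.2% after thinning against 96.9% and 98.0%, whereas Cat was found in 13.6% and 15.8% against 49.7% and 42.0%. Ttr itself, which chose the classes, stood at 0.0649 and 0.0311 of its high-Ttr level. In low-Ttr cells Gpx4 had 4.86 and 8.40 times the level that this fraction would give it, and Cat had 3.80 and 5.69 times. The class rule itself made the Ttr fraction small, so nothing about the source of these UMIs can be read from that. The part of free RNA in the low-Ttr sums was not tested. With 10% of each sum subtracted in the make-up of all kept cells of its mouse, Gpx4 was at -3.12 (edgeR adjusted p = 6.00e-10) and Cat at -3.72 (adjusted p = 1.09e-10).

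Sod1 lay near the threshold. It stood at 0.506 of its high-Ttr level in R1 (0.276 to 0.850) and at 0.868 in R2 (0.416 to 1.60), an interval that includes 1, and edgeR gave a log2 fold change of -1.36 (SE 0.46, adjusted p = 0.0313). The call was lost with totals alone (-0.62, adjusted p = 0.443), in DESeq2 (-1.28, adjusted p = 0.153), without low-Ttr cells that carried markers of another type (-1.25, adjusted p = 0.0610) and without low-Ttr cells with at least 5 Gpx3 UMIs (-1.25, adjusted p = 0.267). Depth also moved with Sod1: in R1 its level was 2.23 in the 871 shallowest high-Ttr cells and 1.24 in the 870 deepest, while the 943 shallowest and 942 deepest of R2 gave 1.19 and 1.23. Against high-Ttr cells of like depth, the log2 fold change of Sod1 was -1.65 (edgeR adjusted p = 0.00259).

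The other 3 genes did not pass. Prdx1 had ratios of levels of 1.08 (0.967 to 1.21) and 1.13 (0.950 to 1.33) and was found after thinning in 89.8% and 94.7% of low-Ttr and 91.5% and 90.2% of high-Ttr cells. Its log2 fold change was -0.60 (edgeR adjusted p = 0.391) and 0.16 with totals alone. Sod2 had ratios of 1.45 (1.14 to 1.80) and 1.33 (0.940 to 1.83), and log2 fold changes of -0.26 (adjusted p = 0.783) and, with totals alone, 0.49. Gpx1 had ratios of 1.40 (1.08 to 1.79) and 1.70 (1.21 to 2.31), and log2 fold changes of -0.12 (adjusted p = 0.915) and, with totals alone, 0.63. The direction of these 3 genes thus depended on the scaling. In R2, 16 of the 40 Gpx1 UMIs of low-Ttr cells lay in a single cell with microglia or macrophage markers.

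**Figure D2:**
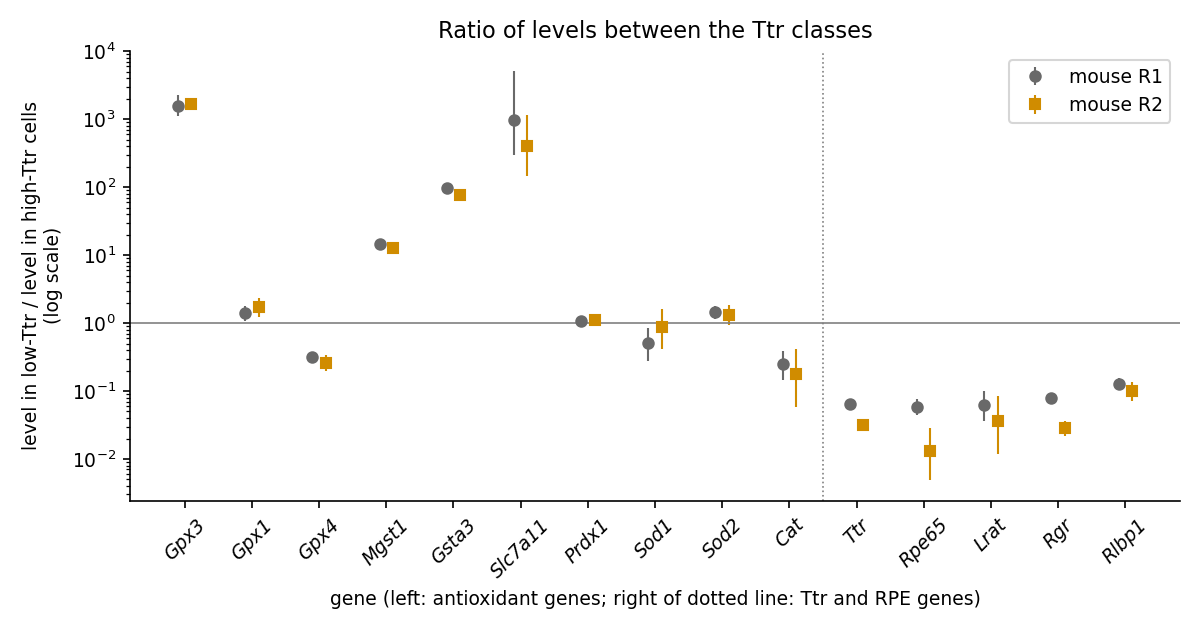
Level in low-Ttr cells divided by level in high-Ttr cells on a log axis for the 10 genes and, right of the dotted line, for Ttr and 4 RPE genes, in mouse R1 (circles) and mouse R2 (squares), with exact 95% intervals that cover counting error. Ratios of the 10 genes ran from 1560 and 1652 for Gpx3 to 0.247 and 0.177 for Cat. Those of Ttr, which is low by the rule that chose the classes, were 0.0649 and 0.0311.

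The use of related genes within a family changed with these levels. Counts at the 3′ end do not separate splice forms of a gene, so use was taken as each gene's share of the UMIs of its family. Of the UMIs of the 8 glutathione peroxidase genes, Gpx4 held 85.9% and Gpx3 0.0528% in high-Ttr cells of R1, and 83.9% and 0.356% in those of R2. In low-Ttr cells Gpx4 held 20.3% and Gpx3 61.7% in R1, and 3.42% and 91.9% in R2. Gpx1 held 8.60% and 9.58% in high-Ttr and 9.03% and 2.54% in low-Ttr cells. The summed family was thus mostly Gpx4 in high-Ttr cells and mostly Gpx3 in low-Ttr cells of both mice. However, 4 low-Ttr cells held 76.1% of the Gpx3 UMIs of that class in R1, and 4 held 95.4% in R2. In pigment-marker cells with fewer than 5 Gpx3 UMIs, 45 in R1 and 10 in R2, Gpx4 outnumbered Gpx3 by 125 to 13 UMIs and by 26 to 7. These cells were chosen by their low Gpx3 counts, with a limit set after the values were seen. Their low Gpx3 is thus given by the choice, and the counts are no test of family use.

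Of the UMIs of the 23 glutathione transferase genes, Gsta4, which acts on the lipid peroxidation product 4-hydroxynonenal, held the largest share in high-Ttr cells at 32.6% and 33.5%, against 9.93% and 12.8% in low-Ttr cells. Mgst1 held 11.7% and 12.0% in high-Ttr cells and 55.6% and 51.6% in low-Ttr cells, and Gsta3 0.683% and 0.803% against 21.6% and 20.8%. Mgst1 and Gsta3 together therefore made up most of this family in low-Ttr cells. The other alpha-class genes Gsta1 and Gsta2 went the other way, with 7.55% and 6.29% for Gsta1 and 8.95% and 8.55% for Gsta2 in high-Ttr cells. In low-Ttr cells Gsta1 had 3 UMIs in R1 and 0 in R2, and Gsta2 had 0 and 1. Gsta1 and Gsta2 are near-identical copies, as are several mu-class genes, so reads may be split or lost among them and their separate values are uncertain.

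Superoxide dismutase use also shifted. Sod2 held 65.0% and 70.4% of the UMIs of the 3 genes in high-Ttr cells, and 72.5% and 48.1% in low-Ttr cells. Sod1 held 32.9% and 28.4% against 12.8% and 12.7%. The secreted form Sod3 held 2.09% and 1.21% against 14.7% (exact interval 8.63% to 22.7%) and 39.2% (28.4% to 50.9%). Of these low-Ttr Sod3 UMIs, 13 of 16 in R1 and 30 of 31 in R2 lay in pigment-marker cells with at least 5 Gpx3 UMIs. In pigment-marker cells with fewer, Sod3 had 3 and 1 UMIs and Sod2 had 65 and 21. The shift to Sod3 thus lay mostly in few cells. Prdx1 held the largest share of the 6 peroxiredoxins in every class, 46.8% and 44.9% in high-Ttr and 34.9% and 35.7% in low-Ttr cells, while Prdx6, which also reduces phospholipid peroxides, held 10.2% and 11.7% against 19.3% and 19.4%.

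**Figure D3:**
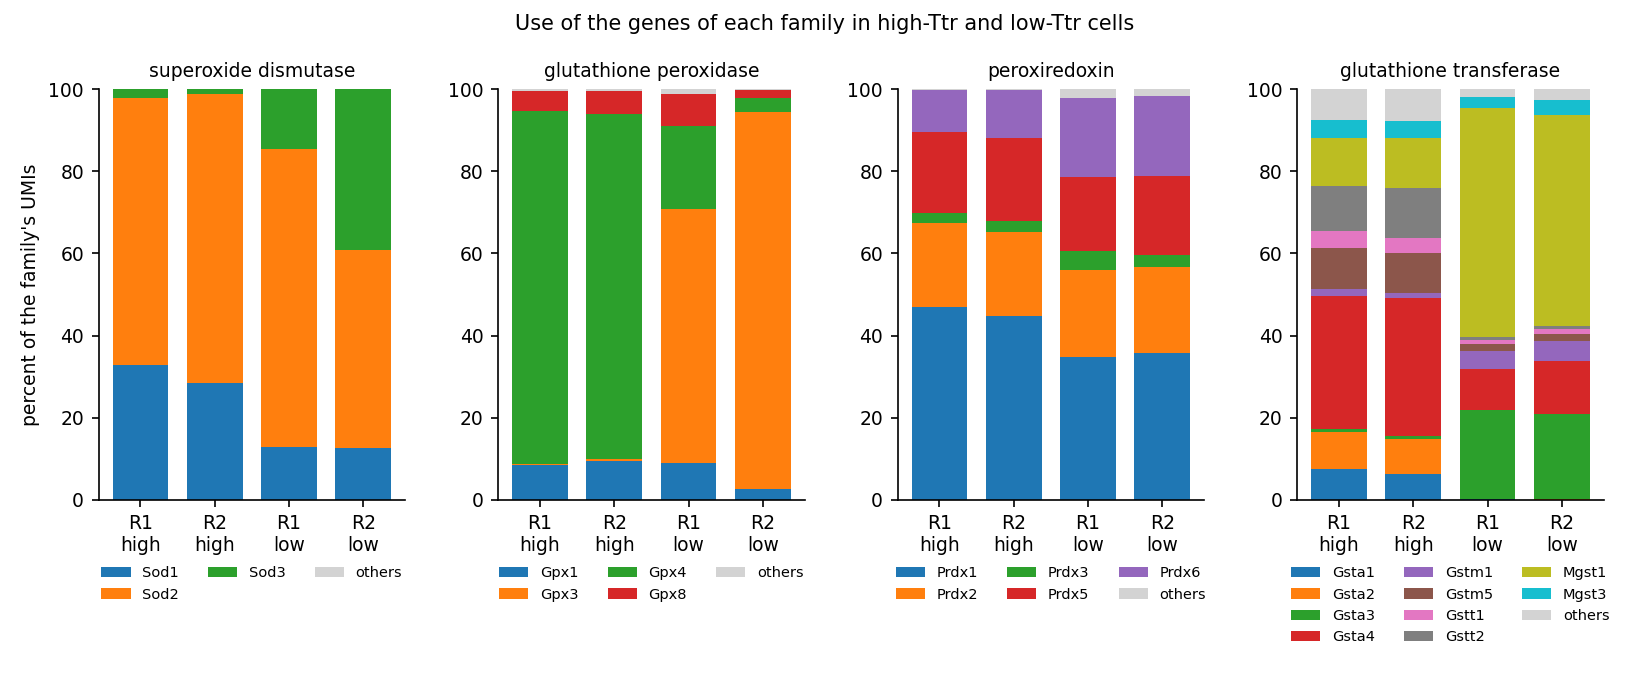
Share of each gene in the UMIs of its family, in percent, as stacked bars for high-Ttr and low-Ttr cells of mice R1 and R2, with genes under 4% in every bar drawn together as others. Gpx4 fills most of the glutathione peroxidase bars of high-Ttr cells and Gpx3 those of low-Ttr cells, and Mgst1 with Gsta3 fills most of the glutathione transferase bars of low-Ttr cells.

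The 4 genes that rose were not spread alike over the low-Ttr cells. Gpx3 was concentrated: in R1, 42 of 59 low-Ttr cells had none and 4 cells with 99, 99, 85 and 55 UMIs held 76.1% of it. In R2, 4 cells with 507, 418, 269 and 189 UMIs held 95.4%. A limit of 5 Gpx3 UMIs, chosen after these values were seen, set 9 of the 54 pigment-marker cells of R1 and 6 of the 16 of R2 apart, with at least 6 and 21 Gpx3 UMIs each, while no other pigment-marker cell had more than 3 and 4. The pigment-marker cells were those without markers of another type, so a further low-Ttr cell of R2 with 12 Gpx3 UMIs, which carried fibroblast markers, is not among them.

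These Gpx3-rich cells held 18 of the 24 Slc7a11 UMIs of low-Ttr cells in R1 and 10 of 11 in R2. Slc7a11 was found in 5 of 9 and 4 of 6 of them, and in 2 of 45 and 1 of 10 of the other pigment-marker cells. These shares were not thinned. Median depth was 3101 UMIs in Gpx3-rich and 3205 in the other pigment-marker cells of R1, and 6792.5 and 3560 in R2. The 3 cells of R2 above 9000 UMIs held 2, 2 and 5 Slc7a11 UMIs, and the deepest low-Ttr cell of R1 (6628 UMIs) held 11. The part of depth was not tested. UMIs of Mgst1 lay in 8 of 9 and 6 of 6 Gpx3-rich cells and those of Gsta3 in 5 of 9 and 5 of 6, so the 4 genes overlapped in cells and differed in level. Mgst1 was at 12.7 UMIs per 10000 in the Gpx3-rich cells of R1 and 42.9 in the other pigment-marker cells, and at 19.7 and 57.1 in R2. Gsta3 was at 3.93 and 17.2 in R1 and at 4.76 and 27.1 in R2. Both transferases were therefore lower in the Gpx3-rich than in the other pigment-marker cells of each mouse, yet above their high-Ttr levels in both kinds. Gpx4 was at 3.93 and 8.74 in R1 and at 5.62 and 7.20 in R2.

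Genes outside the 10 also had different levels in these cells, among them Mlana and Zic4, which are on the marker list that chose the pigment-marker cells. Sod3 was at 3.93 in Gpx3-rich cells and 0.210 in the others in R1, and at 6.49 and 0.277 in R2. Mlana, a melanosome protein, was at 13.0 and 67.9 in R1 and at 7.79 and 75.9 in R2. It was found in 7 of 9 and 4 of 6 Gpx3-rich cells, against 45 of 45 and 10 of 10 of the others. Other genes of the same list did not follow Mlana. Dkk3 was higher in Gpx3-rich cells, at 30.5 and 14.1 in R1 and at 22.7 and 14.7 in R2. Pax6 was at 5.44 and 8.18 in R1 and at 5.62 and 4.43 in R2. The pigment-marker rule asked for any 3 of the 8 genes, so the name does not mean that a cell had Mlana. Penk, the enkephalin precursor, was at 10.3 and 0.0699 in R1 and at 38.3 and 0.554 in R2, and the transcription factor Zic4 was at 3.62 and 2.38 in Gpx3-rich cells and at 0 in the others of both mice. Penk was named after its values were seen. With 9 and 6 cells from 2 mice, these are values of single cells summed within a mouse, and no test was run on them. The 3 low-Ttr cells of R2 above 9000 UMIs (9332, 10880 and 13692) were all Gpx3-rich.

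**Figure D4:**
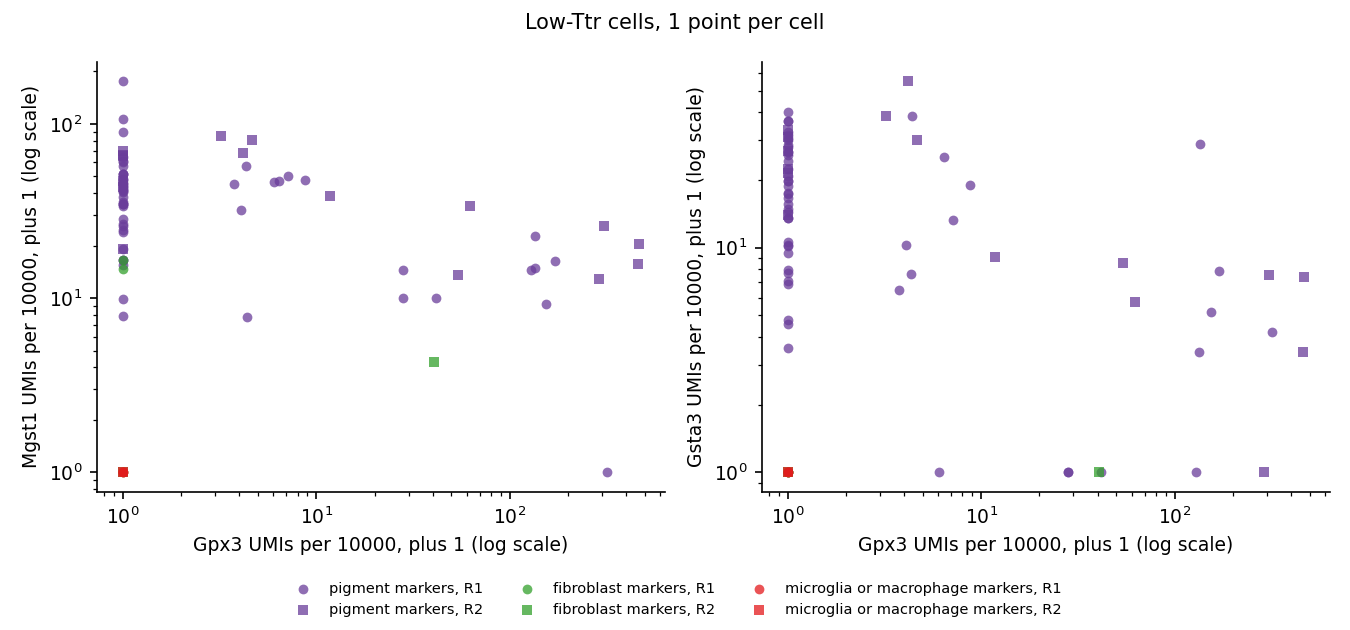
Each point is a low-Ttr cell of mouse R1 (circle) or mouse R2 (square), coloured by the markers it carries, with Gpx3 on the horizontal axis against Mgst1 (left) and Gsta3 (right) on the vertical axis, all in UMIs per 10000 plus 1 on log axes. Cells with the most Gpx3 lie below the cells with the most Mgst1 and Gsta3, and cells with microglia or macrophage markers lie at 0 for all 3 genes.

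Cells with markers of another type added little to the 4 genes that rose. The low-Ttr cells with fibroblast or microglia or macrophage markers, 5 in R1 and 3 in R2, had 0 UMIs of Gsta3 and Slc7a11, 11 and 1 of Mgst1, and 0 and 12 of Gpx3. Over the low-Ttr cells without them, Gpx3 was at 25.2 and 174.5 UMIs per 10000, Mgst1 at 37.2 and 36.1, and Gsta3 at 14.7 and 14.6. Cat depended more on them, with 6 of its 18 UMIs in R1, and its level without them was 0.681 and 0.607.

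The levels were also compared near the Ttr limits. The 8 low-Ttr cells of R1 with 1% to 3% Ttr had no Gpx3 or Slc7a11 UMI, Mgst1 at 42.9 (exact interval 35.0 to 52.0) and Gsta3 at 16.6 (11.9 to 22.7), close to the other low-Ttr cells without much Gpx3. The 12 high-Ttr cells of R1 with 5% to 6% Ttr had no Gpx3 or Gsta3 UMI, Mgst1 at 3.72 (2.47 to 5.37) and Gpx4 at 29.5 (25.7 to 33.6). The 4 such cells of R2 also had no Gpx3 or Gsta3 UMI. Gpx4 in these 4 cells was at 14.3 (10.2 to 19.4), below the 22.7 of the class in R2. In the 12 cells of R1 it lay above the 24.0 of the class, so the mice differed in direction. Gpx1 was at 12.8 (8.99 to 17.8) in the 4 cells of R2, against 2.59 in their class. The interval of Mgst1 in the 12 cells of R1 lay above the 2.39 of its class, and with so few cells 0 Gsta3 UMIs do not separate them from their class.

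Within the high-Ttr cells, split into 3 equal groups by Ttr, Gpx4 was at 24.3, 24.3 and 23.5 from the lowest to the highest Ttr in R1 and at 23.5, 22.7 and 21.6 in R2, with Ttr counted in the totals. Cat was at 4.03, 3.82 and 3.52 in R1 and at 3.27, 3.05 and 2.94 in R2. With Ttr left out of the totals, Gpx4 was at 26.8, 27.4 and 27.2 in R1 and at 26.3, 26.1 and 25.5 in R2. The fall was thus not seen in R1 on that scale and was still seen in R2. The groups were split by Ttr, which is itself part of the full totals, and the cause was not tested. Gpx3 had 0.0129, 0.0190 and 0.0120 in R1 and 0.182, 0.0645 and 0.0211 in R2. By depth, from the shallowest to the deepest of 3 equal groups, Gpx3 was at 0.348, 0.141 and 0.0241 in R2. Depth also moved with Gpx4 in R1, from 19.3 in the shallowest group to 25.4 in the deepest, against 21.4 and 23.4 in R2. Sod2 was the most uneven of the genes with a level above 1: at 2000 UMIs per cell its variance was 1.87 times its mean in R1, above 99.7% of 720 genes of like level, and 1.51 times in R2, above 94.8% of 637. The highest cell of R1 had 135.7 Sod2 UMIs per 10000 against a median of 2.16. Rank correlations between pairs of the 10 genes over high-Ttr cells lay between -0.0951 and 0.127, too weak in sparse counts to be read.

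Gpx3 in high-Ttr cells differed between the mice. No high-Ttr cell of R1 had more than 2 Gpx3 UMIs, whereas 22 in R2 had at least 5 and up to 20. Those 22 cells had Rpe65 at 46.9 and Gpx4 at 22.8 UMIs per 10000, near the levels of 49.7 and 22.7 in the other high-Ttr cells, with Gsta3 at 1.76 against 0.163 and Sod2 at 5.73 against 3.13. Markers of the low-Ttr pigment cells were also higher in them, Pax6 at 0.555 against 0.0251, Dkk3 at 0.647 against 0.0910 and Mlana at 4.07 against 1.37, and the part of such cells or their RNA was not tested. Their median depth was 4696.5 UMIs against 7748, and none carried 3 markers of another type, against 19 of the other 2806 high-Ttr cells. In both classes Gpx3 was higher in R2, by 6.51 times in high-Ttr cells (4.56 to 9.55) and by 6.89 times in low-Ttr cells. Among the low-Ttr cells of R2, 4 cells held 95.4% of the Gpx3 UMIs. The 22 cells held 172 of the 258 high-Ttr UMIs of Gpx3 in R2, and without them its level was 0.0322 against 0.0148 in R1. With 2 mice, no test between them was possible.

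Of a list of 81 antioxidant genes in 9 roles, 80 were listed in the matrices, 73 passed the filter on low counts, and 23 of these were called, 9 higher and 14 lower in low-Ttr cells, beside 10.5% over all genes. The 9 include Slc7a11, with the filter limit given above. This list was also chosen with earlier results of these data known, so its share of calls is no test of the list. With totals alone 25 were called, 16 higher and 9 lower, so the balance of directions in this list turned with the scaling. Their median log2 fold change was -0.23, against -0.34 over all genes. Among the 6 peroxidase genes tested, Gpx3, Gpx4 and Cat were the 3 called, and Gpx8, a peroxidase of the endoplasmic reticulum, was at 2.91 and 3.51 in low-Ttr and 1.39 and 1.52 in high-Ttr cells without a call (log2 fold change 0.40, edgeR adjusted p = 0.667), but with one under totals alone (1.15, adjusted p = 0.00272). Of 4 genes for superoxide dismutases and their copper chaperone, Sod3 rose (3.89, adjusted p = 4.77e-09) and Sod1 fell. The rise of Sod3 was not found without the low-Ttr cells of at least 5 Gpx3 UMIs (0.62, adjusted p = 0.905). Of 7 genes for peroxiredoxins and their repair enzyme sulfiredoxin, the main scaling called Prdx4, a peroxiredoxin of the secretory pathway, at 3.27 (adjusted p = 0.000342) from 19 and 7 low-Ttr UMIs. Prdx6 was called with totals alone (1.37, adjusted p = 5.13e-07) and against high-Ttr cells of like depth (0.84, adjusted p = 0.0498), and Prdx3 with totals alone (1.15, adjusted p = 0.0279). In other roles, Gss (2.19, edgeR adjusted p = 0.00340), Mgst3 (1.18, adjusted p = 0.0130) and Blvrb (1.62, adjusted p = 0.0324) were also called with totals alone and not in the main fit. Of 10 genes of the thioredoxin and glutaredoxin systems, only Txn1, cytosolic thioredoxin, was called, at 1.12 (adjusted p = 0.0262), and without the low-Ttr cells of at least 5 Gpx3 UMIs its fold change was as large but not called (1.16, adjusted p = 0.146).

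In glutathione supply, 4 of 11 genes were called. Slc7a11 was among them, with the filter limit given above. The others were glutathione reductase Gsr, the glutathione-degrading enzyme Chac2 and Ggt1, which splits glutathione outside the cell, all 3 lower. Chac2 had a log2 fold change of -4.22 (edgeR adjusted p = 1.31e-07) from 3 and 0 low-Ttr UMIs, against 1.18 and 1.16 UMIs per 10000 in high-Ttr cells. Gsr had -2.36 (adjusted p = 0.00339) and Ggt1 -2.01 (adjusted p = 0.0356), and with totals alone both calls were lost (adjusted p = 0.0735 and 0.255). Both were also lost without low-Ttr cells of at least 5 Gpx3 UMIs (edgeR adjusted p = 0.186 and 0.297). The Ggt1 call was lost too without cells of other markers (adjusted p = 0.0743) and without low-Ttr cells above 9000 UMIs (adjusted p = 0.110). In R1 its ratio of levels was 0.565, with an interval of 0.243 to 1.11 that includes 1. Gclm, the modifier subunit of the first enzyme of glutathione synthesis, was at 2.13 and 2.85 in low-Ttr and 1.46 and 1.39 in high-Ttr cells and was not called (0.05, adjusted p = 0.973).

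Of the 20 glutathione transferase genes tested, 9 were called, 4 higher and 5 lower. Gstm1 (2.66, edgeR adjusted p = 1.83e-08) and Gstm2 (3.72, adjusted p = 0.0102) rose beside Mgst1 and Gsta3. Gsta1 (-4.54, adjusted p = 2.42e-09), Gsta2 (-6.36, adjusted p = 3.26e-13) and Gstt2 (-3.00, adjusted p = 1.89e-08) fell with Gstt3 and Gstm5. With totals alone the calls of Gstt3 and Gstm5 were lost (adjusted p = 0.105 and 0.0676) at log2 fold changes of -1.49 and -0.98. Gstm2 was not called without the low-Ttr cells of at least 5 Gpx3 UMIs (3.27, adjusted p = 0.232), without cells of other markers (3.51, adjusted p = 0.0516) and without low-Ttr cells above 9000 UMIs (3.53, adjusted p = 0.0516), with fold changes close to the 3.72 of all cells. In R2, 13 of the 28 Gstm1 UMIs of low-Ttr cells lay in the 2 cells with fibroblast markers, and without cells of other types Gstm1 was at 1.82 UMIs per 10000 in place of 3.07 (log2 fold change 2.35, adjusted p = 1.14e-05). In R2 it was at 2.81 in Gpx3-rich cells and 0.554 in the other pigment-marker cells, from 2 UMIs (exact interval 0.0671 to 2.00). In R1 these levels were 3.32 and 2.66. High-Ttr cells had 0.305 in R1 and 0.251 in R2. Without low-Ttr cells of at least 5 Gpx3 UMIs, the log2 fold change of Gstm1 was 2.50 (edgeR adjusted p = 0.000468). The fitted changes of Gsta1 and Gsta2 rest on 3 and 1 low-Ttr UMIs. In R1 the level of Gsta2 was at least 11.7 times lower in low-Ttr cells, taking 3 counts as the limit that a count of 0 allows. Gsta4 was at 6.19 and 8.12 in low-Ttr and 6.67 and 7.06 in high-Ttr cells, and was not called (-0.70, adjusted p = 0.238).

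Both metallothioneins, metal-binding proteins that also scavenge radicals, fell. Mt1 was at 68.9 and 28.1 UMIs per 10000 in low-Ttr and 145.4 and 126.5 in high-Ttr cells (log2 fold change -2.35, edgeR adjusted p = 5.06e-05), and Mt2 at 16.0 and 4.61 against 34.1 and 26.3 (-2.47, adjusted p = 5.39e-08). Of 9 genes for regulators and heme or quinone enzymes, only Nqo1, a quinone reductase, was called, at -2.21 (adjusted p = 1.82e-06). Nfe2l2, which encodes NRF2, was at 0.572 and 0.329 in low-Ttr and 0.368 and 0.332 in high-Ttr cells and was not called (-0.30, adjusted p = 0.868). None of 4 methionine sulfoxide reductase genes was called by edgeR, and their lowest adjusted p was 0.173 for Msrb1, although Msrb1 and Msrb2 had unadjusted p of 0.0275 and 0.0419.

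**Figure D5:**
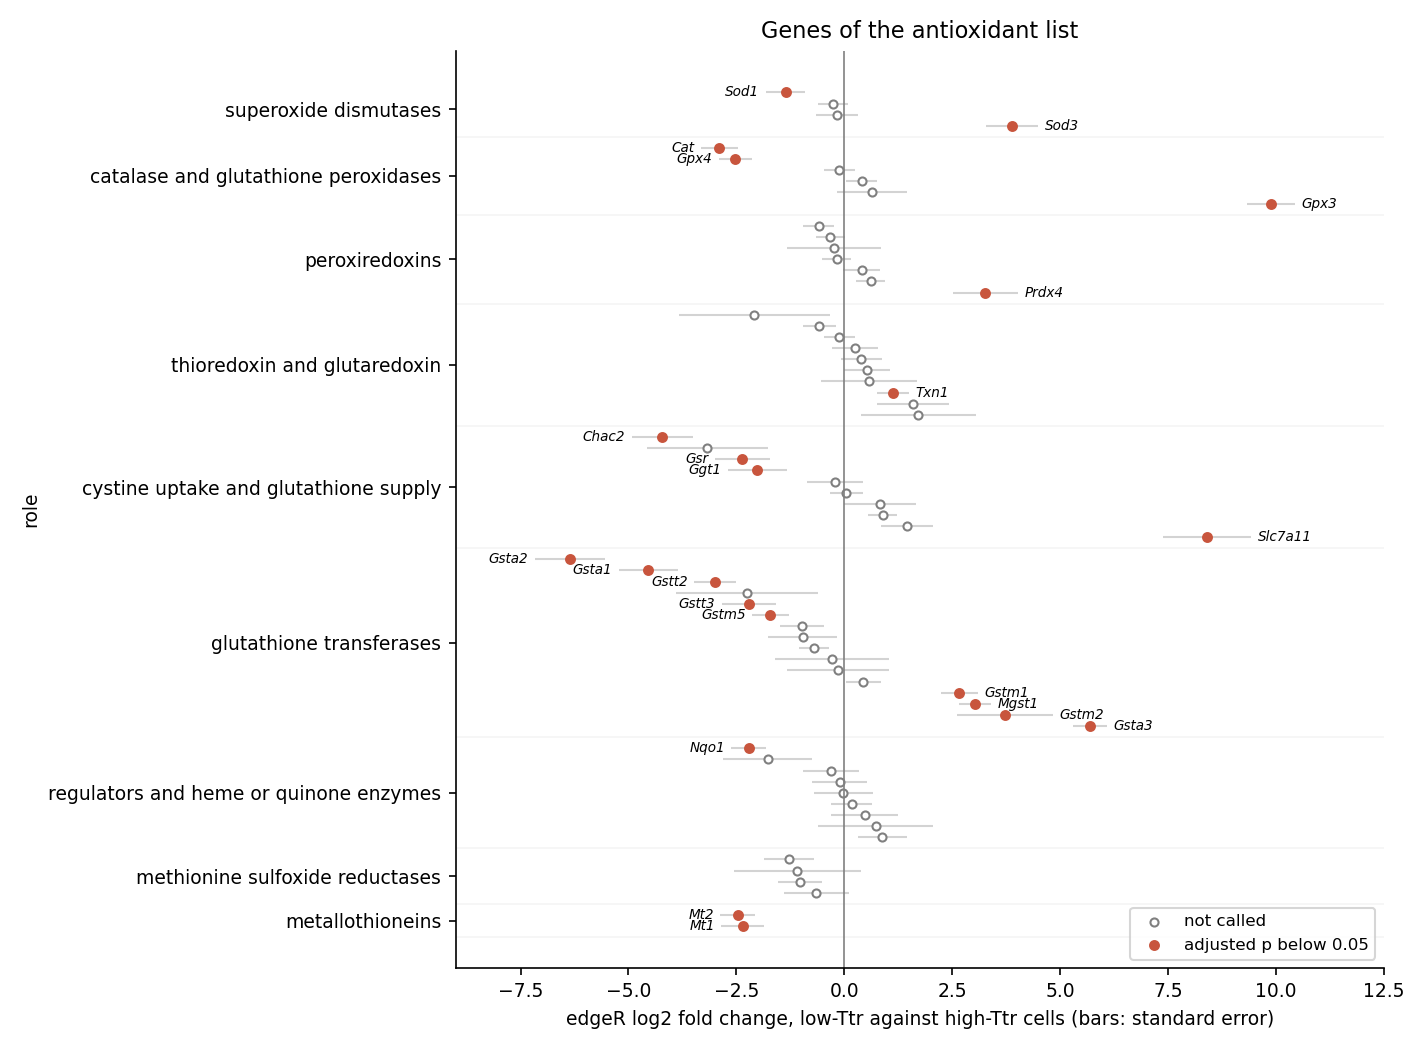
edgeR log2 fold change between low-Ttr and high-Ttr cells (positive: higher in low-Ttr cells) with its standard error as a bar, for the tested genes of the antioxidant list grouped by role, with called genes filled and named and 5 genes without UMIs in low-Ttr cells not drawn. Within the glutathione transferases the called genes ran from -6.36 for Gsta2 to 5.70 for Gsta3, and both metallothioneins lay below 0.

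Since several of these genes are textbook targets of the antioxidant response element, the promoters were searched for its core, TGACNNNGC, on both strands of RefSeq sequences of GRCm38.p6 from 250 bases before to 50 bases after each start site. All 10 genes had a promoter in that set (14 promoters), and 4 genes held a match, beside 12.4% of all 32851 promoters and 14.0% of 27025 genes. The 4 matches are shown because their genes moved in different ways, with the core in capitals and 10 bases on either side, 5′ to 3′ on the plus strand, which is the strand of all 4 genes.
Gsta3, chr1:21240454-21240482, 121 bases before the start site: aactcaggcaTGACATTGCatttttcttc
Mgst1, chr6:138140461-138140489, 56 bases before the start site: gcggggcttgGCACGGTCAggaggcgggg
Prdx1, chr4:116685456-116685484, 133 bases before the start site: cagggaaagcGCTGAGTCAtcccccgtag
Sod1, chr16:90220696-90220724, 56 bases before the start site: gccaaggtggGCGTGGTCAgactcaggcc
The core lay on the gene's own strand in Gsta3 and on the opposite strand in Mgst1, Prdx1 and Sod1. Distances are to a RefSeq start site, and the Mgst1 match lies inside the annotated span of that gene given below. The other promoter of Mgst1 (chr6:138141337-138141636) held no match. Gsta3 and Mgst1 rose in low-Ttr cells, Prdx1 was not called, and Sod1 fell with a call that was lost under 4 alternatives. The promoter windows of Gpx3, Gpx1, Gpx4, Slc7a11, Sod2 and Cat did not hold these letters. Gpx3 and Slc7a11 had the largest log2 fold changes of the 10 genes, Slc7a11 with the filter limit given above. The part of this element in any of these changes was not tested. In the GRCm38 annotation the genes with a match span chr1:21240589-21265661 (Gsta3), chr6:138140316-138156755 (Mgst1), chr4:116685544-116700822 (Prdx1) and chr16:90220754-90226329 (Sod1), all on the plus strand and protein-coding. Gpx3 spans chr11:54902453-54910377, Gpx1 chr9:108338903-108340343, Gpx4 chr10:80047166-80056439 and Sod2 chr17:13006846-13040063, also on the plus strand, and Slc7a11 chr3:49892526-50443614 and Cat chr2:103453849-103485160 on the minus strand. A match is a description of the letters and not of binding.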

How the data were processed

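Per the labels, the authors demultiplexed reads with bcl2fastq 2.20.0.422 and made UMI counts per gene and cell with Cell Ranger 1.2.0 on GRCm38, and the deposited counts were whole numbers without normalization, on called cells only. The barcodes have 14 bases, and the labels and the study's methods name different versions of the 3′ chemistry. The members and gene lists were chosen with earlier results of these data known.

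Cells with fewer than 500 genes (4 and 0) or more than 5% mitochondrial UMIs (58 and 28) were left out, following the study's methods. Of the cells that passed, the 4% (111 and 119) with the highest doublet score were removed. A cell's score was the share of artificial doublets, which made up 25% of profiles, in the 1% of profiles closest to it, with 2000 variable genes reduced to 10 principal components. Ambient RNA was not removed. Levels are UMIs of a class per 10000 of its UMIs (192400 and 91115 in low-Ttr, 23663916 and 26807660 in high-Ttr cells) with exact Poisson intervals. Shares carry Clopper-Pearson and ratios of levels conditional binomial intervals, all at 95% and for counting error only. Shares were thinned to 2000 UMIs per cell, which left out no cell.

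The edgeR 4.0.16 quasi-likelihood test (R 4.3.3, limma 3.58.1) used TMM, filterByExpr and the mouse as a block, since both sums of a mouse come from the same animal. The SE is the absolute log2 fold change divided by the root of F. The script was tested on simulated data. Ttr chose the classes and has no test. Alternatives were DESeq2 1.42.0, other scalings, filters, limits and cells, and 2 were added after the values were seen. Of 81 listed pathway genes, 80 matched by symbol. The named genes are the 10 members, pathway genes called in the main fit or with totals alone, and the 3 highest other genes of each role in high-Ttr cells. Cell type marker lists came from general knowledge and the study's text. Other tools were Python 3.11.15, numpy 2.4.6, scipy 1.17.1, pandas 2.3.3, scikit-learn 1.9.0 and matplotlib 3.10.9. Promoter windows are from RefSeq.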

Additional observations from a re-analysis of the deposited data

How the results depend on the processing

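All 7 called members kept their direction under the 14 alternatives tested, of which 2 were added after the values were seen, and 6 of them stayed past the threshold in all. Sod1 did not, as given above. Slc7a11 is among both the 7 and the 6, although it could enter the fit only with a difference. For Gpx3, the setting without low-Ttr cells of at least 5 Gpx3 UMIs removed cells by its own counts and is no test of it. Over these settings and each mouse alone, log2 fold changes ranged from 4.14 to 12.08 for Gpx3, 6.58 to 9.20 for Slc7a11, 5.40 to 6.45 for Gsta3, 2.81 to 3.79 for Mgst1, -3.72 to -2.17 for Cat, -3.12 to -1.78 for Gpx4 and -1.65 to -0.62 for Sod1. Members called numbered 6 or 7 and pathway genes called 17 to 30. Directions turned for genes that were not called: Gpx1 was at 0.63 with totals alone, 0.24 against high-Ttr cells of like depth, 0.16 without low-Ttr cells of at least 5 Gpx3 UMIs and 0.083 without low-Ttr cells above 9000 UMIs, and with totals alone Prdx1 was at 0.16 and Sod2 at 0.49. The cause was not tested. Without those Gpx3-positive cells, which left 50 and 12 low-Ttr cells, 721 genes were called in place of 1203. The pairing comes from the animal, and without the replicate block 2234 genes and again 7 members were called. Leaving out a mouse gives values without a test, since no spread between mice remains. With 59 and 19 low-Ttr cells, Slc7a11, Sod1 and Cat rest on 5 to 24 low-Ttr UMIs per mouse, and changes of such genes have wide intervals.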
